A study of Homo sapiens with 8 samples.

Results

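The genes for mucins and trefoil factors were followed across normal intestinal epithelial lines, colorectal cancer (CRC) lines and CRC lines under hypoxia. The group was defined by symbol and not by level: MUC1, MUC2, MUC5AC, MUC5B, MUC12, MUC13, MUC17, MUC20, TFF1 and TFF3, which are 10 of the 54261 genes in the count table. All 10 symbols had a row, and 8 of them were tested in each comparison, since they reached 10 counts in 2 or more of its libraries. MUC2 and MUC17 did not reach that minimum and are described by their counts.

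Each library was total RNA, depleted of ribosomal RNA, from 1 line at passage 5, all grown in DMEM with fetal bovine serum. NCM460 and HIEC6 are labelled as normal human intestinal epithelium and were untreated (n = 2 lines). DLD1, HCT116 and HCT8 are CRC lines that were sequenced untreated (n = 3 lines) and again with hypoxia (n = 3 lines), for which no oxygen level or duration is given in the sources used here. The replicates of a group are different lines, so the spread within a group is the spread between lines, and each line stands for a single culture in each state.

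Mucins are large glycoproteins whose serine- and threonine-rich repeats carry dense O-linked sugars. MUC2, MUC5AC and MUC5B are secreted and polymerize into the mucus gel, while MUC1, MUC12, MUC13, MUC17 and MUC20 span the membrane and form part of the glycocalyx. Trefoil factors are small, disulfide-rich peptides that are secreted with mucins and act in epithelial repair. In the healthy colon MUC2 and TFF3 are the classic products of goblet cells, whereas MUC5AC and TFF1 belong mainly to the surface mucous cells of the stomach and can appear in colorectal tumors.

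Total counts lay between 45519306 and 57374239 per library, so 3 counts, used as the detection floor, correspond to 0.0523 to 0.0659 CPM (counts per 1e6 counts of the library). Intervals given with single libraries are exact 95% Poisson intervals and cover counting error only. Over genes with at least 10 counts in 2 or more libraries, untreated NCM460 correlated with untreated HCT116 at a Pearson r of 0.989 on log2(CPM + 1). Its r with the other normal line, HIEC6, was 0.876. For scale, the untreated and hypoxia libraries of a line correlated at 0.965 (HCT116) to 0.990 (DLD1). Different untreated CRC lines correlated at 0.906 to 0.953. The label of the NCM460 library was kept as given. HIEC6 had 10 counts of EPCAM and 69375 counts of VIM, and of its keratins KRT8 (243272 counts) and KRT18 (211257) were high while KRT19 had 56 counts and KRT20 0. With CDH1 at 172 counts and CLDN3 at 0, the epithelial label of HIEC6 is met by KRT8 and KRT18 and not by most of the other markers. No run label is common to untreated and hypoxic CRC libraries, and run and treatment cannot be told apart. All 10 genes of a list of hypoxia-response genes had higher fitted levels under hypoxia, and 6 of them passed edgeR's test with the line as a block, among them CA9 (carbonic anhydrase 9).

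The promoters of the members whose patterns recur below are shown to place those patterns beside the sequence in front of each gene. RefSeq's table for GRCh38.p14 held 5 of the 10 members (MUC1, MUC2, MUC12, MUC13 and MUC17). The 250 bases before the transcription start are given on the gene's strand for MUC1 (chr1:155192910-155193159, minus strand), MUC12 (chr7:100969315-100969564, plus strand) and MUC13 (chr3:124934752-124935001, minus strand). Capitals mark exact matches, on either strand, to TATAAA (the TATA box core), GGGCGG (a GC box), ACGTG or GCGTG (cores of hypoxia response elements) and CAAAGTCC (a core of HNF4 sites).
MUC1: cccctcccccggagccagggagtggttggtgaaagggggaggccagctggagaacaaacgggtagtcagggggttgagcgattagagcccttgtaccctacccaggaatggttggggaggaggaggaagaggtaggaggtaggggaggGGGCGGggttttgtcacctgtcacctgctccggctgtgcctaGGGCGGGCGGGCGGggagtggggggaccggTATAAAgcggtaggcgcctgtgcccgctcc
MUC12: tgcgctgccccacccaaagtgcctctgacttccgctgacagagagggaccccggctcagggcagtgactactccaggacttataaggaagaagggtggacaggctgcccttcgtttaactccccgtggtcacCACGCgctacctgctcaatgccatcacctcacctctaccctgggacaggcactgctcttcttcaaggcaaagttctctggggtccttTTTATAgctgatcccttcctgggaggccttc
MUC13: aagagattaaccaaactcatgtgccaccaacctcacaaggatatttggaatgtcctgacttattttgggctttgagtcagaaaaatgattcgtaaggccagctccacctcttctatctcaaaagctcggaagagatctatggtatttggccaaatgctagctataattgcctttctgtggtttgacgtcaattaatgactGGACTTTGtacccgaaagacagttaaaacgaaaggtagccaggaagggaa

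MUC1 held TATAAA 30 bases before the start and 4 copies of GGGCGG, of which 3 overlap. MUC12 held the reverse complement of GCGTG at position -118 and that of TATAAA at position -31. MUC13 held the reverse complement of CAAAGTCC at position -50 and none of the others, in a promoter with 41.6% G and C against a median of 58.0% over all promoters. Of 35116 promoters of the same length, 18.5% held ACGTG, 32.2% GCGTG, 10.7% TATAAA, 42.6% GGGCGG and 1.02% CAAAGTCC. The promoters of MUC2 and MUC17 held none of these letters in the same window. The motifs were chosen after the sequences had been seen, and a match describes the letters and is not evidence of a site.

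MUC13, a transmembrane mucin of the intestinal brush border, was higher in both HCT8 and both DLD1 libraries than in the other 4 libraries. MUC13 (ENSG00000173702) lies on chromosome 3 from 124624289 to 124672663 (GRCh37, minus strand). It was at 14.7 CPM (13.7 to 15.8) in untreated DLD1 and 15.3 CPM (14.3 to 16.4) in untreated HCT8. Under hypoxia it was at 27.6 CPM in DLD1 and 31.1 CPM in HCT8. The remaining libraries lay far lower, at 0.479 CPM and 0.704 CPM in HCT116 without and with hypoxia, 1.02 CPM in HIEC6 and 0.0203 CPM, a single count, in NCM460. The CRC lines thus split into a pair with MUC13 and a line nearly without it.

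Both trefoil genes followed the same split in a sharper form. TFF1 (ENSG00000160182, chromosome 21, 43782391 to 43786644, minus strand) had 276 counts in untreated DLD1 and 372 under hypoxia, and 203 and 299 counts in HCT8. The other 4 libraries held 0 counts of TFF1, which is below a floor of at most 0.0610 CPM. TFF3 (ENSG00000160180, chromosome 21, 43731777 to 43735519, minus strand), the goblet cell trefoil factor, had 507 and 1048 counts in DLD1 and 71 and 215 counts in HCT8. It had 0 counts in both HCT116 libraries and 1 count in each normal line. Per kilobase of exon, TFF3 was at 19.8 CPM in DLD1 under hypoxia, above TFF1 at 13.2 and MUC13 at 7.90. In HCT8 under hypoxia the order of these levels per kilobase was TFF1 at 13.4, MUC13 at 8.89 and TFF3 at 5.12.

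MUC5B and MUC5AC, neighbouring gel-forming mucin genes of chromosome 11, were each high in a different line. MUC5B (ENSG00000117983, 1244296 to 1283402, plus strand) had 542 counts in untreated HCT8 and 1227 under hypoxia, or 10.3 and 27.0 CPM. It had 2 and 59 counts in DLD1, 11 and 22 in HCT116, 14 in NCM460 and 6 in HIEC6. MUC5AC (ENSG00000215182, 1151580 to 1222364, plus strand) was highest in DLD1, with 316 counts untreated and 258 under hypoxia, or 6.17 and 4.50 CPM. HCT8 had 41 and 15 counts of MUC5AC, HIEC6 had 5, and both HCT116 libraries and NCM460 had 0. MUC2, the main gel-forming mucin of the colon, was near the floor throughout. It had 10 and 4 counts in DLD1, 6 and 2 in HCT8, 1 in each HCT116 library, 7 in HIEC6 and 0 in NCM460, at most 0.195 CPM.

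MUC1, a transmembrane mucin with a signalling tail, was highest in a normal line. MUC1 (ENSG00000185499, chromosome 1, 155158300 to 155162707, minus strand) had 1056 counts in HIEC6, or 18.6 CPM (17.5 to 19.8), which was 90.7% of all counts on the 10 genes in that library. The other untreated lines lay between 0.209 CPM in HCT8 and 1.52 CPM in DLD1, with NCM460 at 1.06 CPM and HCT116 at 0.766 CPM. Under hypoxia MUC1 was at 6.64 CPM in DLD1, 1.73 CPM in HCT116 and 2.61 CPM in HCT8. Every hypoxia library was above every untreated CRC library, and HIEC6 was above all of them.

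MUC12, a transmembrane mucin of the chromosome 7 cluster, was highest in the CRC line that had least MUC13. MUC12 (ENSG00000205277, 100612846 to 100662220, plus strand) had 44 and 154 counts in HCT116, 103 in NCM460, 31 in HIEC6, 13 and 32 in HCT8 and only 0 and 1 in DLD1. Its levels thus ranged from 2.78 CPM in HCT116 under hypoxia to 0 in untreated DLD1. The neighbouring MUC17 had 1 count, in untreated HCT8, and 0 in the other 7 libraries. MUC20 (ENSG00000176945, chromosome 3, 195447755 to 195467994, plus strand) was low, with 14 and 57 counts in DLD1, 22 and 51 in HCT8, 8 in NCM460 and at most 1 in HCT116 and HIEC6. Its copy MUC20P1 had 28 and 138 counts in DLD1 and 22 and 66 in HCT8, so the split of reads between MUC20 and MUC20P1 is uncertain. The gene models of MUC12 and MUC5B overlap antisense genes, and the strand setting of the counting is not given in the sources used here. MUC1 and MUC20 overlap genes on their own strand, ENSG00000273088 over 1449 bases and MUC20-OT1 over 19081 bases. Neither had a row under that name, and how reads in these stretches were assigned is not known.

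**Figure D1:**
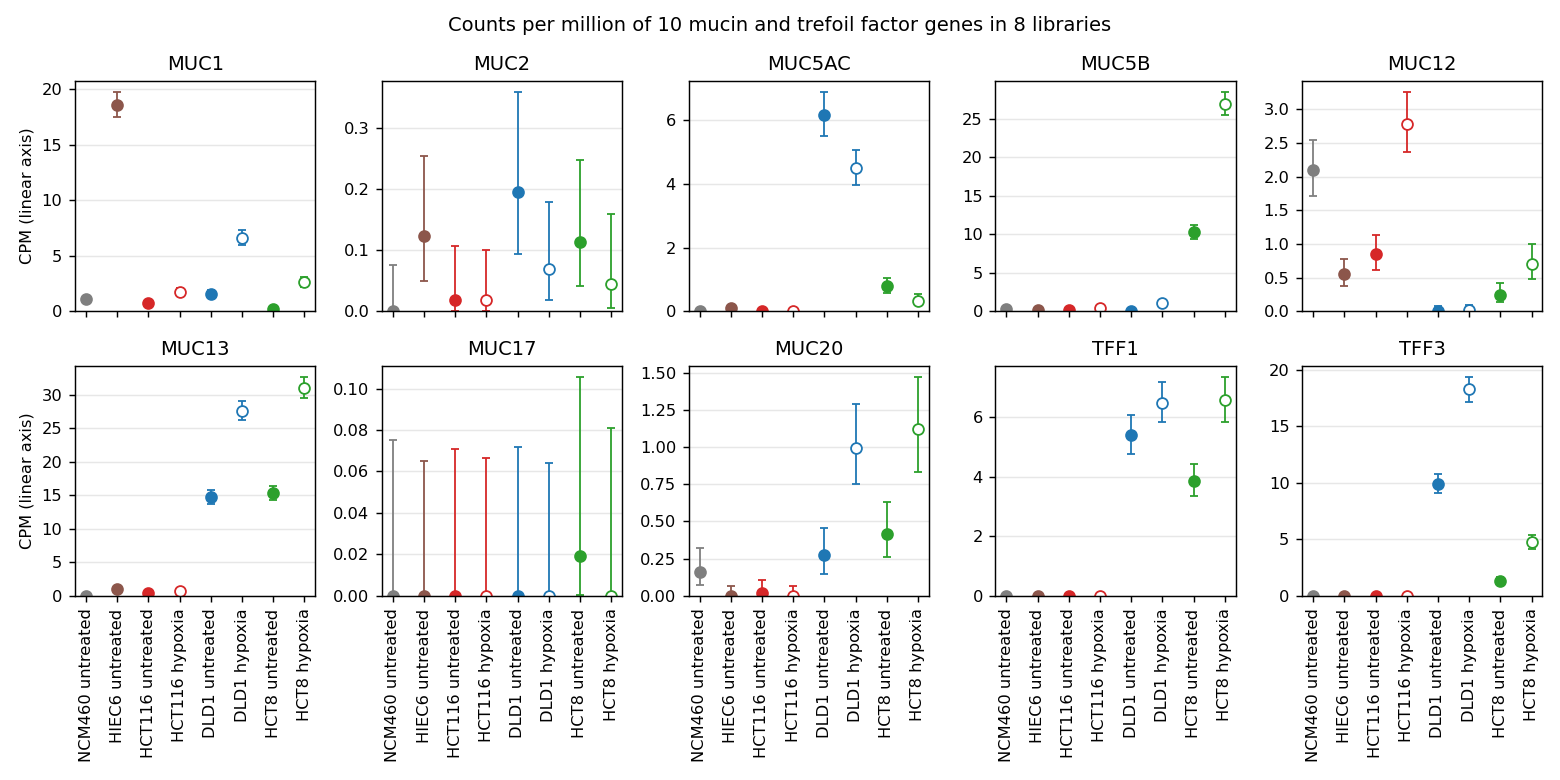
Level of each of the 10 genes in the 8 libraries, in CPM on a linear axis with a separate scale per gene. Filled points are untreated and open points hypoxia libraries, and bars are exact 95% Poisson intervals. MUC13, TFF1 and TFF3 stand above the other libraries in DLD1 and HCT8, MUC5B in HCT8, MUC5AC in DLD1, and MUC1 is highest in HIEC6 at 18.6 CPM.

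The summed level of the 10 genes was 38.2 CPM in untreated DLD1 and 32.6 CPM in untreated HCT8, against 2.34 CPM in untreated HCT116, 3.64 CPM in NCM460 and 20.5 CPM in HIEC6. Under hypoxia the sums were 65.6 CPM in DLD1, 74.1 CPM in HCT8 and 5.63 CPM in HCT116. TFF1 and TFF3 together made up 40.0% of these counts in untreated DLD1 and 15.96% in untreated HCT8. DLD1 had 7 members with at least 10 counts in each state, HCT8 8, HCT116 4, and each normal line 3.

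To ask which of these genes set the CRC lines apart, the 3 lines were compared over the 6 CRC libraries, with treatment as a covariate and the pair of libraries of a line as its replicates. By edgeR's quasi-likelihood F test with Benjamini-Hochberg adjustment, 7 of the 8 tested members differed among lines, where 39.0% of the 21045 genes tested did. MUC5AC, MUC20, TFF1 and TFF3 passed the minimum of counts through DLD1 and HCT8 alone, and MUC12 through HCT116 and HCT8 alone. A difference was thus built into the testing of these 5 genes, and their p-values and the count of 7 are a description. MUC13 had an adjusted p of 3.79e-05 and was lower in HCT116 than in DLD1 by a log2 difference of -4.90 (SE 0.32). HCT8 differed from DLD1 in MUC13 by -0.04 (SE 0.26), a difference within its error. TFF1 had an adjusted p of 0.000292, and its log2 difference between HCT8 and DLD1 of -0.38 (SE 0.43) also lay within its error. TFF3 had an adjusted p of 0.000128 and was lower in HCT8 than in DLD1 by a log2 difference of -2.55 (SE 0.43).

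Genes with 0 counts in HCT116 were set against a floor of 3 counts over both of its libraries. Pooled over both libraries of a line, TFF1 was at least 214-fold higher in DLD1 and at least 183-fold higher in HCT8 than in HCT116. TFF3 was at least 514-fold higher in DLD1 and at least 105-fold higher in HCT8. MUC5AC was at least 190-fold higher in DLD1 and at least 20.5-fold higher in HCT8, and it differed among lines with an adjusted p of 0.000404. HCT8 was below DLD1 in MUC5AC by a log2 difference of -3.50 (SE 0.58).

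MUC5B was higher in HCT8 than in DLD1 by a log2 difference of 5.43 (SE 0.72) and than in HCT116 by 5.54 (SE 0.73), with an adjusted p of 0.000388 by edgeR's test. MUC12 was lower in HCT8 than in HCT116 by a log2 difference of -2.26 (SE 0.65), and its adjusted p among lines was 0.00147. MUC20 passed with an adjusted p of 0.0236, with HCT8 and DLD1 0.20 apart (SE 0.84), and lost the call in 4 of the 6 fits that left out 1 library (untreated HCT8, at 0.0548, or any of the 3 hypoxia libraries, at 0.0549 to 0.0826). MUC1 did not pass, at an adjusted p of 0.0545. It passed without untreated HCT116 (0.0165) or without HCT116 under hypoxia (0.00898), and with DESeq2 (0.0237), and its adjusted p ranged from 0.00647 to 0.454 over all alternatives.

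The 5 untreated libraries served to compare CRC lines and normal lines. No member passed (0 of 8), and edgeR's test called 0% of the 19964 genes. At an unadjusted p under 0.05 edgeR had 542 genes and 1 member, MUC1, with an unadjusted p of 0.0487 beside an adjusted p of 0.999. DESeq2 called 143 genes and 0 of the 7 members to which it gave an adjusted p (MUC20 had none). MUC1 averaged 9.84 ± 12.4 CPM in the normal lines (SD, n = 2) and 0.833 ± 0.660 CPM in the untreated CRC lines (SD, n = 3). Its log2 fold change of -3.79 (SE 1.48) became -0.42 without HIEC6. MUC13 averaged 0.522 ± 0.709 CPM in the normal lines (SD, n = 2) and 10.2 ± 8.40 CPM in the untreated CRC lines (SD, n = 3), with a log2 fold change of 3.98 (SE 2.18). TFF3 differed by 7.30 (SE 3.18) and TFF1 by 10.24 (SE 3.91), both carried by DLD1 and HCT8, and these fitted values depend on the prior count because the normal lines were at 0 or 1 count.

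Fitted values were higher in the CRC lines for 6 of the 8 tested members, with a median log2 fold change of 3.94, against 49.7% of all genes and a median of -0.0048. MUC5AC, MUC20, TFF1 and TFF3 reached the minimum of counts through CRC libraries alone, which fixes their direction, so this count and median are a description. Without untreated HCT8 the median was -1.20, and without untreated DLD1 it was 1.09, over the 4 members that could then be tested in each case. In no member (0 of 8) did the CRC and normal levels fail to overlap, where 18.2% of all genes did not overlap. HCT116 and NCM460, which belong to different groups, both held low counts of several members: MUC1 at 40 and 52, MUC5B at 11 and 14, MUC12 at 44 and 103, TFF1 at 0 and 0, and TFF3 at 0 and 1. MUC13, with 25 in HCT116 and 1 in NCM460, and MUC20, with 1 and 8, were less alike.

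Markers of other cell types differed between the normal lines along with MUC1. The 11 mesenchymal markers summed to 1469 CPM in HIEC6 and to 107 CPM in NCM460, and to between 13.5 and 44.03 CPM in the untreated CRC lines. VIM (vimentin) made up 1223 CPM of the sum in HIEC6, against 8.62 CPM in NCM460. Of the 11 genes, 7 were higher in HIEC6 than in NCM460 and 4 were lower (COL1A2, COL3A1, DCN and THY1), such as the collagen gene COL1A2 at 0.458 and 7.99 CPM. The 8 leukocyte and endothelial markers summed to between 3.71 and 23.7 CPM over all libraries, with PTPRC, the defining leukocyte gene, at 6 counts or fewer. CD68, also on the leukocyte list, was not low: it was at 16.2 CPM in HIEC6 (919 counts) and 6.87 CPM in NCM460. In the untreated CRC lines CD68 lay between 1.14 and 4.94 CPM. The endothelial genes CDH5 and PECAM1 were highest in HIEC6, with 306 counts of CDH5 against at most 10 elsewhere and 81 counts of PECAM1 against at most 25. VWF, also endothelial, went the other way, lowest in HIEC6 at 0.423 CPM and highest in DLD1 under hypoxia at 12.7 CPM. The part of these markers in the MUC1 level was not tested.

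Hypoxia was compared with no treatment within each CRC line first, since each line was sequenced in both states. MUC1 was higher under hypoxia in all 3 lines, going from 78 to 381 counts in DLD1, from 40 to 96 in HCT116 and from 11 to 119 in HCT8. These are CPM ratios of 4.36 (95% counting interval 3.41 to 5.64), 2.26 (1.55 to 3.36) and 12.5 (6.75 to 25.7). MUC13 had ratios of 1.88 (1.72 to 2.05) in DLD1, 1.47 (0.868 to 2.54) in HCT116 and 2.03 (1.86 to 2.21) in HCT8. The HCT116 interval for MUC13 held 1, while the intervals of DLD1 and HCT8 lay around 2.

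The counts of the gel-forming mucins went in opposite directions. MUC5B had a ratio of 2.62 (2.36 to 2.90) in HCT8, of 1.89 (0.877 to 4.31) in HCT116 and of 26.3 (6.97 to 223) in DLD1, the last from 2 counts in the untreated library. MUC5AC had a ratio of 0.729 (0.616 to 0.862) in DLD1 and 0.423 (0.218 to 0.781) in HCT8. MUC2 went from 10 to 4 counts in DLD1, a ratio whose interval held 1.

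TFF1 and TFF3 were higher under hypoxia in both lines that expressed them. TFF2, which is not a member, was at 0.937 CPM untreated and 0.331 CPM under hypoxia in DLD1, and at 0.646 and 0.703 CPM in HCT8. TFF3 had a ratio of 1.85 (1.66 to 2.06) in DLD1 and 3.50 (2.67 to 4.65) in HCT8. TFF1 had ratios of 1.20 (1.03 to 1.41) and 1.70 (1.42 to 2.05). MUC12 had ratios of 3.30 (2.35 to 4.73) in HCT116 and 2.85 (1.45 to 5.91) in HCT8, and MUC20 of 3.63 (1.999 to 7.06) in DLD1 and 2.68 (1.60 to 4.64) in HCT8. These intervals hold counting error only and say nothing of how a second culture would differ.

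**Figure D2:**
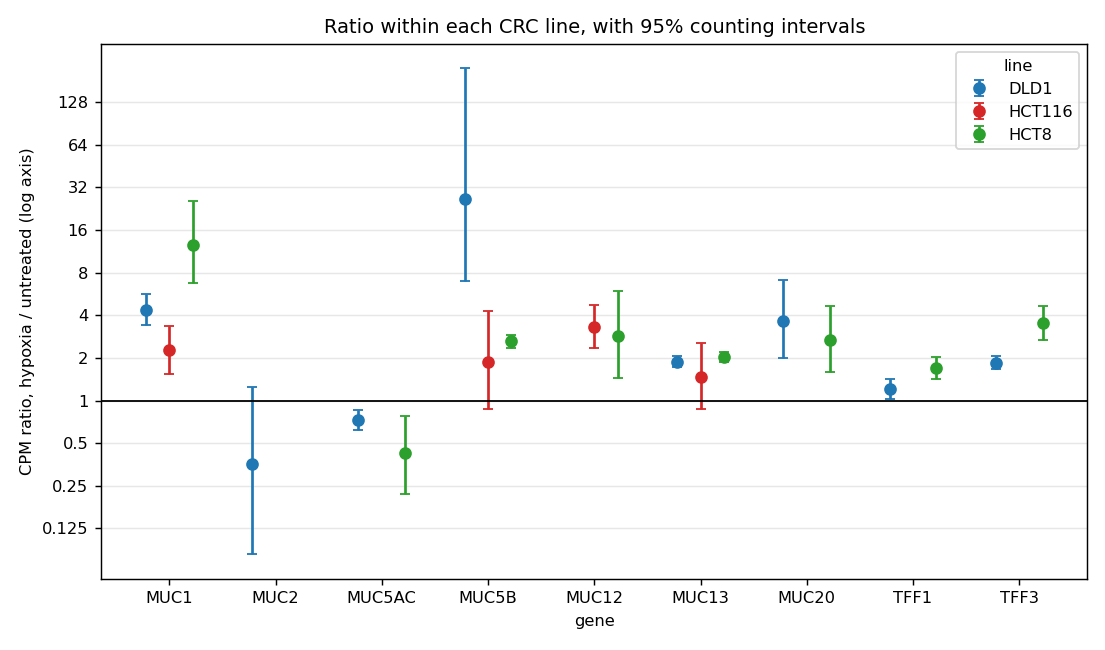
Ratio of CPM under hypoxia to CPM untreated within each CRC line, on a log axis, for member and line pairs with at least 10 counts in either library. Points are ratios and bars exact 95% counting intervals. MUC1 lies above 1 in all 3 lines, and MUC5AC lies below 1 in DLD1 (0.729) and HCT8 (0.423).

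Counting a ratio above 2 as a description, 3 of 8 members with at least 10 counts were higher in DLD1, where 11.2% of genes were, and 1 of 8 was lower (MUC2), where 5.90% were. In HCT116, 2 of 4 members were over 2-fold higher, where 12.4% of genes were, and 0 of 4 were lower, where 25.7% were. In HCT8, 6 of 8 members were over 2-fold higher, where 14.4% of genes were, and 1 of 8 was lower (MUC5AC), where 9.81% were. Levels were higher under hypoxia in all 3 lines for 4 of the 8 tested members (MUC1, MUC5B, MUC12 and MUC13), where 16.2% of genes were. For MUC12 this count includes DLD1, where it went from 0 to 1 count. MUC1 was the 1 of 8 members whose hypoxia and untreated CRC levels did not overlap, where 9.50% of genes did not overlap.

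Over the 6 CRC libraries without regard to line, no member passed edgeR's test (0 of 8), and 0% of the 21045 genes did. DESeq2 called 55 genes and 0 of the 6 members to which it gave an adjusted p (MUC5B and MUC20 had none). In edgeR's fit no member had an unadjusted p under 0.05, where 607 genes had. The spread entering this fit is the spread between lines, which for these genes is wide: MUC1 was at 0.833 ± 0.660 CPM untreated and 3.66 ± 2.62 CPM under hypoxia (SD, n = 3 each), and MUC13 at 10.2 ± 8.40 and 19.8 ± 16.6 CPM. Fitted values were higher under hypoxia for 7 of the 8 members, with a median log2 fold change of 1.25, against 54.3% of all genes and a median of 0.06.

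With the line as a block, which pairs the libraries of a line, edgeR's test called 0.950% of the genes and again 0 of the 8 members. An unadjusted p under 0.05 was reached by 5 members, where 3884 of the 21045 genes reached it. MUC1 had a log2 fold change of 2.37 (SE 0.51) with an adjusted p of 0.0779. MUC13 was at 0.97 (SE 0.23) with 0.0938, MUC5B at 2.02 (SE 0.56) with 0.125, TFF3 at 1.34 (SE 0.42) with 0.164 and MUC12 at 1.86 (SE 0.62) with 0.176. MUC20 at 1.37 (SE 0.83), TFF1 at 0.54 (SE 0.43) and MUC5AC at -0.77 (SE 0.53) had adjusted p-values between 0.427 and 0.558.

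The call turned with the tool and with 1 line. DESeq2 with the same block called 10.9% of the genes to which it gave an adjusted p and 4 of the 7 members with one (MUC20 had none), MUC1 (adjusted p = 0.000647), MUC13 (0.00214), MUC5B (0.00833) and TFF3 (0.0478), all higher under hypoxia. edgeR's test with the block and without both HCT116 libraries called 738 genes in all, among them the same 4 members. These were MUC1 at 2.75 (SE 0.47, adjusted p = 0.0111), MUC13 at 0.97 (SE 0.20, 0.0266), TFF3 at 1.31 (SE 0.30, 0.0405) and MUC5B at 2.06 (SE 0.48, 0.0416). Without both DLD1 libraries the test called 292 genes and 0 of the 8 members. Without both HCT8 libraries it called 6 genes and 0 of the 8 members. The share of all genes called is not given here for the fits without a line, so their counts of members are a description. Over all alternatives the adjusted p ranged from 0.000647 to 0.9999 for MUC1, from 0.00214 to 0.9999 for MUC13, from 0.00833 to 0.9999 for MUC5B and from 0.0405 to 0.9999 for TFF3.

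**Figure D3:**
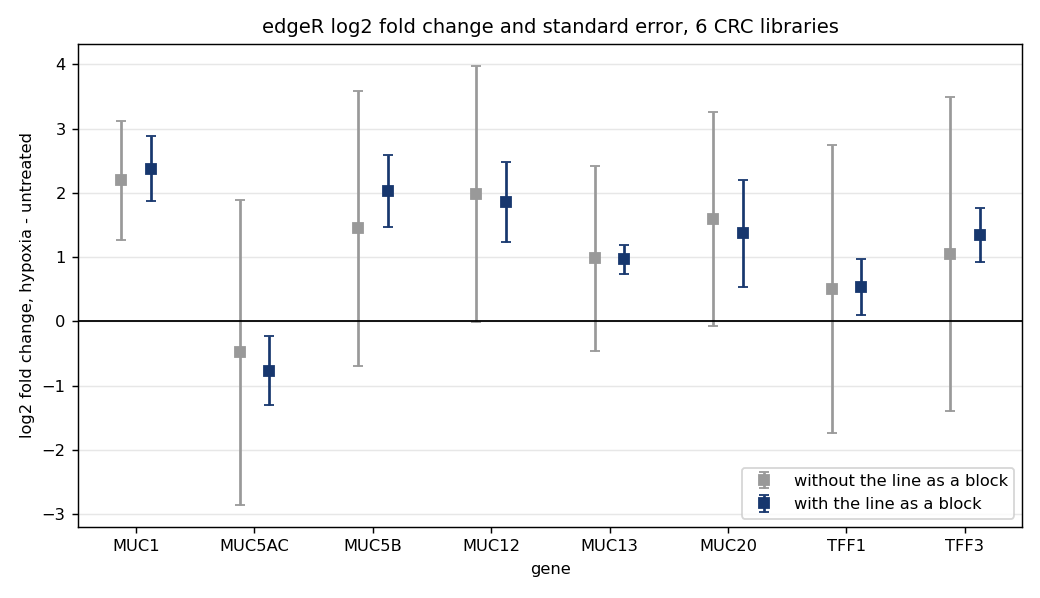
edgeR log2 fold change of hypoxia against untreated for the 8 tested members over 6 CRC libraries, with bars of 1 standard error, without (grey) and with (blue) the line as a block. The block narrowed the error of MUC13 to 0.23 and of MUC1 to 0.51, and 7 of the 8 values lie above 0.

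Some markers of other cell types also differed with hypoxia. The mesenchymal list summed to 13.5 and 96.5 CPM in DLD1 without and with hypoxia, to 44.03 and 175 CPM in HCT116 and to 16.7 and 26.3 CPM in HCT8. All 11 genes were higher under hypoxia in DLD1 and in HCT116, but 5 were higher and 6 lower in HCT8 (among the latter VIM, at 1.03 and 0.220 CPM), where the median of the list was 1.03 CPM untreated and 0.461 CPM under hypoxia. FN1 (fibronectin) was the 1 of its 10 tested genes that passed with the block (log2 fold change 2.80, SE 0.42, edgeR adjusted p = 0.0295). Of 12 epithelial markers, KRT19 alone passed, at 1.56 (SE 0.17, adjusted p = 0.0115). CD68 was at 4.94 and 20.6 CPM in HCT116 without and with hypoxia. It was at 1.43 and 1.24 CPM in DLD1 and at 1.14 and 1.56 CPM in HCT8. With the block 0 of 4 tested leukocyte and endothelial genes passed. The part of all these markers in the levels of the mucin genes was not tested. Among the CRC lines, 9 of 12 epithelial and 6 of 10 mesenchymal genes tested differed by edgeR's test. So did 3 of 4 leukocyte or endothelial and 5 of 10 hypoxia-response genes, beside 39.0% of all genes. CDX1 and BNIP3 were among those tested only through a line where they were high, so these counts are a description.

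Other mucins were read from a list of 15, of which 14 had a row and 6 were tested. Among the CRC lines 3 of the 6 differed by edgeR's test, near the 39.0% of all genes, and 0 of 6 passed in the comparison with normal lines or under hypoxia, with or without the block. MUC3A, a transmembrane mucin beside MUC12 and MUC17, had 1232 and 1716 counts in HCT116, 291 and 535 in HCT8, 23 and 46 in DLD1, 1145 in NCM460 and 197 in HIEC6. Its order of CRC lines was that of MUC12, and it differed among lines with an adjusted p of 2.57e-05. MUC4, an ERBB2-binding transmembrane mucin next to MUC20, had 253 and 343 counts in HCT8 and at most 4 in any other library. MUC16 was highest in HCT116, at 34 and 92 counts. MUC4 met the minimum of counts through HCT8 alone, so its call is no independent result. MUC16 met it in both HCT116 libraries and, at 20 counts, in HCT8 under hypoxia, but not in DLD1, and its call is a description too. CD164, a widely expressed sialomucin, lay between 134 and 326 CPM and did not pass. TFF2, the remaining trefoil factor, had 48 and 19 counts in DLD1 and 34 and 32 in HCT8.

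Goblet cell genes other than the members differed among the CRC lines in 11 of the 13 tested of 20 listed, beside 39.0% of all genes. In the other comparisons 0 passed. AGR2, SPINK4, BCAS1 and FOXA2 reached the minimum of counts through DLD1 and HCT8 alone, so the count of 11 is a description. KLF4, a transcription factor of differentiating epithelium, was highest in HCT116 under hypoxia at 278 CPM and lay between 20.1 and 96.2 CPM elsewhere (adjusted p = 0.0160). AGR2, the disulfide isomerase that folds mucins, had 11171 and 14120 counts in DLD1 and 7697 and 8234 in HCT8, and at most 4 counts in each other library, so that it was tested through those 2 lines alone. FOXA1, a transcription factor of endodermal epithelia, was likewise far higher in DLD1 and HCT8 than in HCT116, with 9391 and 13837 counts in DLD1, 11270 and 7635 in HCT8 and 81 and 79 in HCT116, beside 697 in HIEC6. ERN2, the stress sensor of mucous cells, was highest in DLD1, at 35.3 and 82.7 CPM, and at 1.29 and 2.09 CPM in HCT8. GFI1 and FCGBP, which also differed among the CRC lines, went the other way and were highest in HCT116 among them. GFI1 was at 13.4 and 6.99 CPM there, and FCGBP at 3.45 and 2.78 CPM. CLCA1 and RETNLB, products of mature goblet cells, had 0 counts in every library, and ATOH1, which specifies the secretory lineage, had at most 6.

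**Figure D4:**
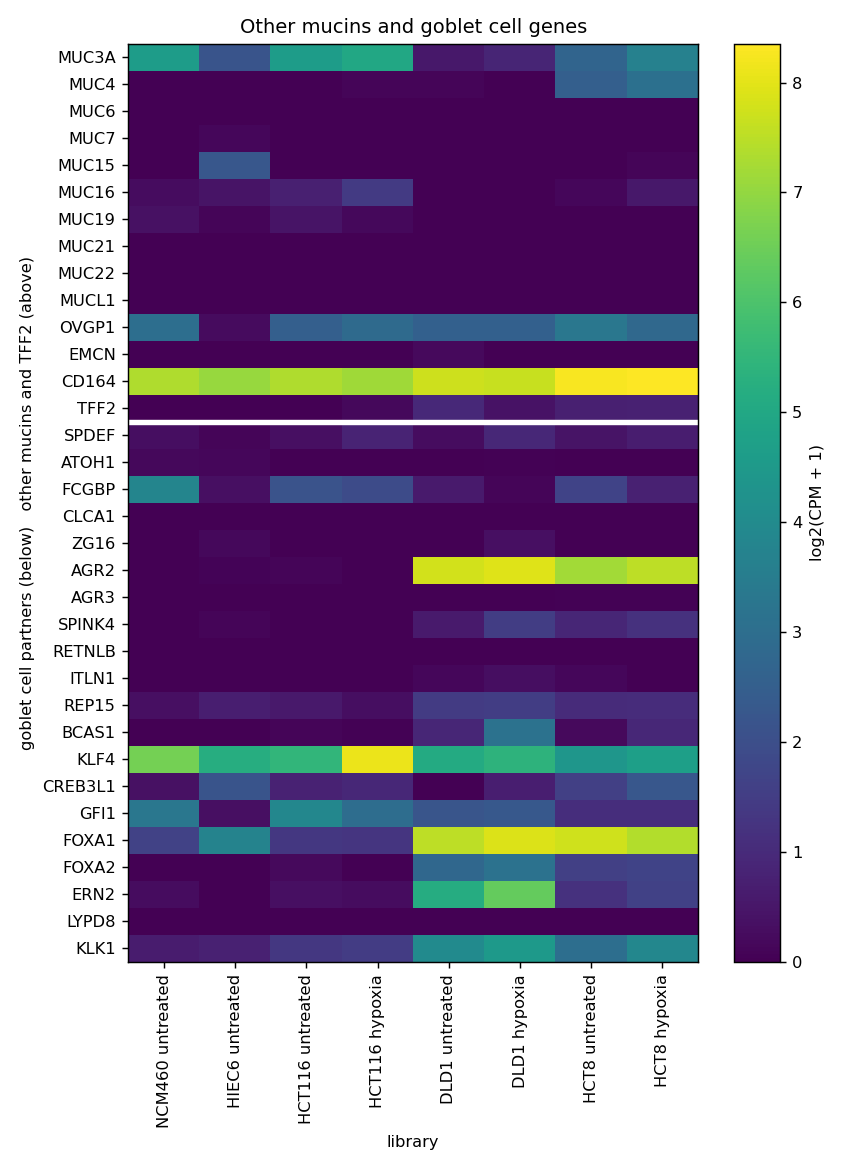
Heat map of log2(CPM + 1) of 14 other mucin and trefoil genes (above the white line) and 20 goblet cell genes (below) in the 8 libraries. AGR2 and FOXA1 are bright in DLD1 and HCT8, MUC3A in NCM460 and HCT116, and MUC4 in HCT8 alone.

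Of 28 genes for O-linked glycosylation of mucins, 18 of 25 tested differed among the CRC lines, beside 39.0% of all genes, and 0 passed in the other comparisons. GALNT14, a transferase that starts O-glycans, had 719 and 284 counts in HCT116 and 1272 in NCM460, and 0 in all DLD1 and HCT8 libraries. ST6GALNAC1, which adds sialic acid to form sialyl-Tn, had 57 and 39 counts in DLD1 and 59 and 75 in HCT8, and at most 1 elsewhere. GALNT14 and ST6GALNAC1 were thus tested only through lines where they were high, and the count of 18 is a description. The neighbours and antisense partners of the members are a list of 20 genes that holds TFF1, TFF3 and MUC4 again. Of its 15 tested genes 12 differed among lines, beside the same 39.0%, and 0 passed elsewhere. TFF1, TFF3, MUC4 and TMPRSS3 were tested only through lines where they were high, so the count of 12 is a description too. The 3 gastric surface markers GKN1, GKN2 and CLDN18 were not tested: in the CRC libraries CLDN18 had 4 counts in HCT8 under hypoxia and the others 0, while GKN2 had 192 counts in HIEC6. The lines with MUC5AC and TFF1 counts thus had 0 counts of GKN1 and GKN2.

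Resemblance was described for MUC1, MUC5B, MUC13, TFF1 and TFF3, the members with a mean log2(CPM + 1) above 1. It was taken over the 8 libraries, which share lines and are not independent. On log2(CPM + 1), Pearson's r was 0.987 between MUC13 and TFF1, 0.914 between TFF1 and TFF3, 0.882 between MUC13 and TFF3 and 0.641 between MUC13 and MUC5B. MUC1 was unlike the other members compared, with r between -0.232 and 0.133. Among 14353 genes with a mean log2(CPM + 1) above 1, the genes most like TFF1 were CDH17 (an intestinal cadherin, r = 0.996), LOC105378763 (0.995) and AGR2 (0.995). Those nearest to MUC13 were TTC6 (0.994), LOC101928725 (0.992) and LINC00649 (0.990). The nearest to TFF3 were IL1R2, the decoy receptor of interleukin-1 (0.993), LOC105379383 (0.991) and FAM84A (0.989). MUC5B was most like DMC1 (0.991), SH3BP5-AS1 (0.989) and GSTA4 (0.988), and MUC1 most like KIAA0319 (0.954), LOC102724015 (0.944) and GDA, guanine deaminase (0.943).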

How the data were processed

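The authors deposited raw, whole-number counts for 54261 genes in 8 columns, made from RNA depleted of ribosomal RNA. All 8 columns were used. The study's methods state alignment to GRCh37.p13, while the submitters' processing notes name HISAT2 2.0.4 and GRCh38. The counter, strand setting and treatment of reads with several matches are not given in the sources used here. Gene positions come from GENCODE lifted to GRCh37, and promoter sequences from RefSeq (GRCh38.p14). The members, gene lists and motifs were chosen with earlier results of these data known.

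CPM is the count over the column total. Tests used edgeR 4.0.16 (quasi-likelihood, TMM, Benjamini-Hochberg over all genes tested, threshold 0.05) in R 4.3.3. A gene entered a fit if 2 or more of the libraries had 10 counts or more. The standard error was taken from the log2 fold change and the F statistic. DESeq2 1.42.0, other scalings and filters, each library left out and the line as a block were alternatives. Every member is named. From each list at most 4 genes were named, by level or by passing the test, with a few others chosen after their values were seen. For members with a mean log2(CPM + 1) above 1, the 3 nearest genes were named. The procedure was tested on simulated counts with a smaller spread than between CRC and normal lines, where the fit's coefficient of variation was 0.868. The hypoxia fit without the block was not simulated. Only genes with higher mean counts were changed, so the simulation does not cover members near the floor. Counting intervals used SciPy 1.17.1.

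Among the CRC libraries a replicate number stands for 1 cell line and pairs its 2 libraries. After subtraction of group means, the libraries of a line correlated at 0.836, 0.857 and 0.820, against -0.611 to -0.0599 between lines. Between CRC and normal lines equal numbers belong to different lines, so they give no pairing.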

Additional observations from a re-analysis of the deposited data

How the results depend on the processing

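Between CRC and normal lines DESeq2 called 143 genes in place of 0, and each fit that left out 1 library called 0. For MUC5B the log2 fold change turned to -0.97 with the replicate number as a block and lay between -0.71 and 4.66 with 1 library left out. Between hypoxia and untreated CRC lines, the count of genes moved from 0 to 55 with DESeq2, to 200 with the line as a block, to 1666 with DESeq2 and the block, and, with the block, to 292 without both DLD1 libraries, 738 without both HCT116 libraries and 6 without both HCT8 libraries. With 1 library left out and no block it stayed at 0, and the log2 fold change ranged from -3.90 to 2.21 for MUC5AC, from -0.087 to 1.27 for TFF1, from -0.79 to 3.65 for TFF3, from -0.17 to 3.68 for MUC12 and from -2.02 to 6.06 for MUC5B. Such fits are unbalanced over lines. Among the CRC lines the count of genes was 8208, 5149 with no treatment term and 4547 to 10147 with 1 library left out. With at least 10 counts in every library, MUC1 and MUC13 alone could be tested among the lines, and MUC13 passed. The cause of these shifts was not tested.

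With 1 culture per line and state, no value separates a line from its culture, and MUC2 and MUC17 lie too near the floor for differences to be read at this depth.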
